A study of Oryza sativa Japonica Group with 8 samples.

Results

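Leaves of rice that overexpressed OsGRP3 (OsGRP3 OE) were compared with leaves of rice in which OsGRP3 was knocked down (OsGRP3 KD), at 2 libraries a side, 4 of the 8 RNA-sequencing libraries of the series. These were the groups with the highest and the lowest OsGRP3 levels. OsGRP3 OE plants were of the japonica cultivar Nakdong and carried the OsGRP3 coding sequence, cloned from cultivar Nipponbare, behind the OsCc1 promoter, which drives expression throughout the plant. OsGRP3 KD plants were of the japonica cultivar Dongjin and carried an inverted repeat of a fragment from the 3′ untranslated region of OsGRP3 behind the constitutive OsGOS2 promoter. Non-transgenic (NT) Nakdong and NT Dongjin made up the other 4 libraries, at 2 each. By the labels and methods all plants were 4 weeks old, grown in soil without drought or hormone treatment, although a figure legend of the study gives a younger age. The study kept single-copy homozygous lines, and which line was sequenced is not given in the sources used here, so a group may be 1 insertion event. Since each transgene was in its own cultivar, the effect of the transgenes and the difference between the cultivars cannot be told apart. The study describes the libraries of a group as biological replicates. Neither it nor the labels say whether they came from separate plants, and p-values measure the spread between these libraries.

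OsGRP3 belongs to the small glycine-rich RNA-binding proteins, which hold an RNA recognition motif at the amino end and a glycine-rich region at the carboxyl end. Proteins of this family bind messenger RNAs and act on their splicing, export, stability and translation, and their genes respond to cold, drought and abscisic acid. In Arabidopsis the relatives GRP7 and GRP8 follow the circadian clock and act in stress and immune responses.

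The 2 constructs meet at the end of the OsGRP3 coding sequence on chromosome 3. The primers below, read 5′ to 3′, are shown because they set which part of the transcript each construct copies. Capitals mark the 17 bases shared by the end of the coding sequence and the start of the knockdown fragment.
End of the coding sequence in the overexpression construct: gcgGGAACTGGAGGAACTGA
Forward primer of the knockdown fragment: GGAACTGGAGGAACTGAttg
Reverse primer of the knockdown fragment: ggtaacatcacggacgaaga
The overexpression construct ended with the stop codon, the last 3 bases of the first line. The knockdown fragment began inside the coding sequence and ran on into the untranslated region. Reads of the gene and of either transgene were counted together under OsGRP3.

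OsGRP3 (Os03g0670700, IRGSP 1.0 chromosome 3, 26460057 to 26461156, plus strand, 4 annotated transcripts) is given first. Levels of 1 gene across libraries are counts-per-million values (CPM) scaled by the trimmed mean of M-values (TMM). OsGRP3 was at 1527 and 1928 CPM in OsGRP3 OE leaves, against 345 and 325 CPM in OsGRP3 KD leaves. The groups did not overlap. This order is no check of the labels, since NT Nakdong also stood above NT Dongjin. The means were 1728 ± 283 CPM in OsGRP3 OE and 335 ± 14.5 CPM in OsGRP3 KD (SD, n = 2 each), a 5.16-fold difference (log2 fold change 2.37, SE 0.12), which is a description since the groups were chosen for it.

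NT levels of OsGRP3 differed between the cultivars in the same direction. NT Nakdong had 1250 and 1171 CPM and NT Dongjin 400 and 403 CPM, a log2 fold change of 1.59. OsGRP3 OE stood above NT Nakdong and OsGRP3 KD below NT Dongjin, and both steps were smaller than the gap between the NT cultivars.

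**Figure D1:**
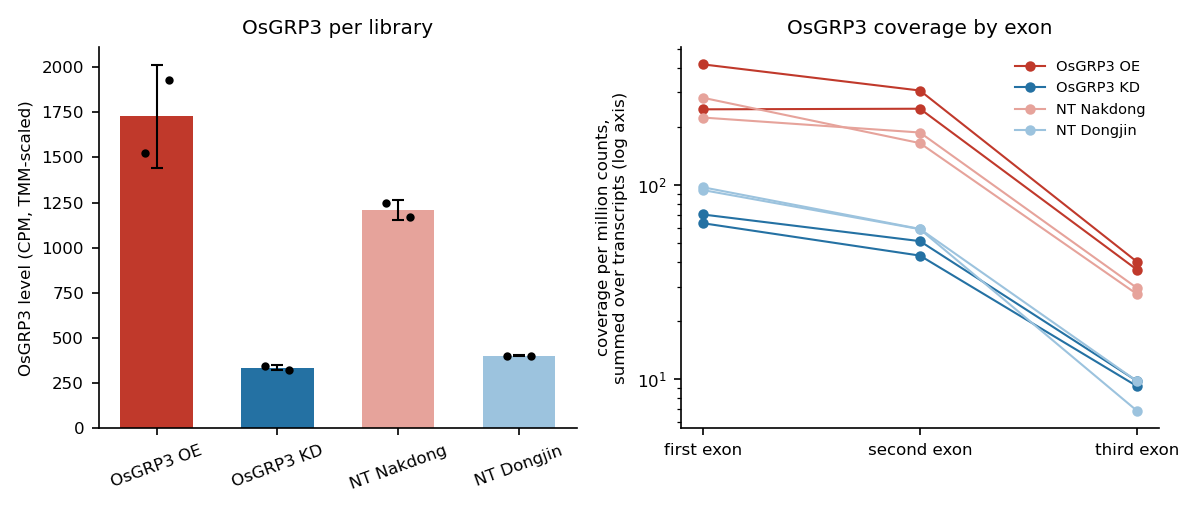
Left, OsGRP3 level (CPM, TMM-scaled) per library, with bars at the mean of 2 libraries and error bars of 1 SD. Right, coverage of each exon of OsGRP3, on a counts-per-million scale and summed over the transcripts that have that exon, on a log axis, with 1 line a library. The OsGRP3 OE libraries lie at 1527 and 1928 CPM and the OsGRP3 KD libraries at 345 and 325 CPM, and on each exon both OsGRP3 OE libraries are above both OsGRP3 KD libraries.

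The exons were read one by one, since the constructs copy different parts of the transcript. Coverage of the first exon, on a counts-per-million scale, was 245.29 and 418.14 in OsGRP3 OE leaves, against 70.54 and 63.62 in OsGRP3 KD leaves. The third exon, summed over the transcripts that have one, had 36.53 and 40.12 in OsGRP3 OE leaves, against 9.77 and 9.19 in OsGRP3 KD leaves. This leaves out Os03t0670700-02, whose long second exon covers the same place. Over its whole length that exon had 55.416 and 41.6 in OsGRP3 OE, against 13.265 and 12.244 in OsGRP3 KD. OsGRP3 OE was thus the higher group on both ends of the gene. The transcript with the longest second exon, which runs through the place of the third, took 24.384% and 19.619% of the coverage summed over transcripts in OsGRP3 OE leaves, against 33.112% and 35.842% in OsGRP3 KD leaves. These shares are StringTie estimates and the shares in NT Nakdong, 35.282% and 20.971%, spanned both groups.

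The other 3 genes of the list of glycine-rich RNA-binding proteins were not called. Os12g0632000, annotated as similar to Glycine-rich RNA-binding protein 1, had 1712 and 1697 CPM in OsGRP3 OE leaves, against 1014 and 1074 CPM in OsGRP3 KD leaves. Its log2 fold change of 0.71 (SE 0.09, adjusted p = 0.00266) passed the test but not the 2-fold limit. By transcripts-per-million values (TPM), which allow levels of genes to be compared, Os12g0632000 at 2169 and 2265 TPM lay within the range of OsGRP3, 2047 and 2736 TPM, in OsGRP3 OE leaves. In OsGRP3 KD leaves it was the more abundant, at 1400 and 1359 TPM against 497 and 428 TPM of OsGRP3. Os07g0187300, the member annotated as similar to Glycine-rich RNA-binding protein 7, stood at 54.0 and 54.3 CPM in OsGRP3 OE and 56.0 and 53.8 CPM in OsGRP3 KD, with overlapping groups. Os05g0223200 had under 2 CPM in every library (log2 fold change 0.76, adjusted p = 0.335).

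The libraries hold 25836946 to 38940899 estimated counts each, 27662050 to 30446472 in the 4 compared here. The leaf label was met. Genes of the light-harvesting complexes and photosystems summed to 193039 and 166868 TPM in OsGRP3 OE and 162202 and 171969 TPM in OsGRP3 KD. The 5 root markers summed to 8.19 and 8.70 TPM in OsGRP3 OE and 11.2 and 9.98 TPM in OsGRP3 KD. Of these, RCc3, Lsi2 and NRT2.1 were at 0 in these 4 libraries. The silicon influx transporter Os02g0745100 was read in all 4, with 281 and 277 counts in OsGRP3 OE and 400 and 337 in OsGRP3 KD. Os03g0667500, annotated as similar to a metal transport protein, had 43 and 34 counts in OsGRP3 OE and 40 and 31 in OsGRP3 KD. Coverage fell off towards the 5′ end alike on both sides, with a median log2 ratio of first to last exon of -2.44 and -2.69 in OsGRP3 OE and -2.45 and -2.72 in OsGRP3 KD. The NT Dongjin libraries stood apart, at -0.86 and -0.79. The morning clock gene OsLHY (Os08g0157600) had 154 and 167 CPM in OsGRP3 OE and 141 and 140 CPM in OsGRP3 KD, with 162 and 157 CPM in NT Nakdong but 4100 and 4106 CPM in NT Dongjin. Expansins and xyloglucan endotransglycosylases summed to 113 and 109 TPM in NT Dongjin, against 846 to 1354 TPM in the other libraries. The NT Dongjin levels given below therefore come from libraries that differ in more than the cultivar, and the part of this in the results was not tested.

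Which genes differed between OsGRP3 OE and OsGRP3 KD leaves was asked of 24383 genes with edgeR's quasi-likelihood test. In whole leaves, fewer cells of a type and less RNA per cell cannot be told apart. A gene was called where it changed at least 2-fold and its Benjamini-Hochberg adjusted p was under 0.05. A total of 296 genes (1.21%) were higher and 280 (1.15%) lower in OsGRP3 OE, together 576 (2.36%). All 576 had groups that did not overlap, as did 46.1% of all genes tested. The median difference of the called genes was 5.455-fold, and the median log2 fold change over all genes was 0.005. At 2-fold and an unadjusted p under 0.05, edgeR gave 933 (3.83%) higher and 703 (2.88%) lower, together 1636 (6.71%). Leaving out OsGRP3 KD replicate 1 took the higher genes to 560, and testing each gene alone on quantile-normalized values, nearer to the study's own test, called 3 higher and 7 lower, or 176 and 181 at an unadjusted p under 0.05.

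The called genes of highest level and lower in OsGRP3 OE were a pair of T2 ribonucleases and 2 defense proteins. Os09g0537700, a ribonuclease T2 of the family that degrades RNA in vacuoles and cell walls, had 1432 and 1729 CPM in OsGRP3 OE leaves, against 3938 and 4382 CPM in OsGRP3 KD leaves (log2 fold change -1.40, SE 0.12, adjusted p = 0.000274). The nearby Os09g0538000, of the same family, had 95.5 and 129 CPM in OsGRP3 OE, against 423 and 330 CPM in OsGRP3 KD (log2 fold change -1.75, SE 0.16, adjusted p = 0.000421). For Os09g0537700, both NT groups, at 2147 and 2259 CPM in NT Nakdong and 1819 and 1794 CPM in NT Dongjin, lay between the transgenic groups. Os01g0124000, a Bowman-Birk inhibitor, one of the proteins that block trypsin-like proteases and often rise on wounding, had 104 and 121 CPM in OsGRP3 OE, against 480 and 257 CPM in OsGRP3 KD (log2 fold change -1.71, SE 0.24, adjusted p = 0.00559). The thaumatin-family protein Os12g0569500 had 137 and 116 CPM in OsGRP3 OE, against 336 and 267 CPM in OsGRP3 KD (log2 fold change -1.25, SE 0.13, adjusted p = 0.0011). NT Dongjin, at 474 and 481 CPM for Os01g0124000 and 345 and 376 CPM for Os12g0569500, was near OsGRP3 KD for both. For Os12g0569500 NT Nakdong, at 199 and 223 CPM, lay between the transgenic groups and on the OsGRP3 KD side of their midpoint on the log2 scale.

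On the other side, the abundant genes higher in OsGRP3 OE were also high in NT Nakdong. Os12g0247700, annotated as a jasmonate-induced protein, had 346 and 1129 CPM in OsGRP3 OE leaves, against 15.8 and 21.9 CPM in OsGRP3 KD leaves (log2 fold change 5.29, SE 0.51, adjusted p = 0.000701). The OsGRP3 OE libraries differed widely in this gene, with both above the OsGRP3 KD libraries, and NT Nakdong was higher still at 1730 and 1589 CPM. Os06g0254300, an EF-hand protein of the class that binds calcium, had 389 and 436 CPM in OsGRP3 OE, against 90.5 and 115 CPM in OsGRP3 KD (log2 fold change 2, SE 0.12, adjusted p = 3.48e-05). NT Nakdong, at 418 and 402 CPM, and NT Dongjin, at 108 and 108 CPM, showed the same gap. Os04g0338100, similar to the maize IN2-2 protein, a gene of maize induced by herbicide safeners, had 425 and 388 CPM in OsGRP3 OE, against 138 and 157 CPM in OsGRP3 KD (log2 fold change 1.47, SE 0.09, adjusted p = 5.3e-05). The call of Os03g0401300, sucrose synthase 2, which cleaves sucrose for starch and cell-wall synthesis, was on the threshold (706 and 571 CPM in OsGRP3 OE, 394 and 204 CPM in OsGRP3 KD, log2 fold change 1.10, adjusted p = 0.05) and was lost without OsGRP3 KD replicate 2 at 0.69, without OsGRP3 OE replicate 1 at 0.94 and without OsGRP3 OE replicate 2 (adjusted p = 0.0557).

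**Figure D2:**
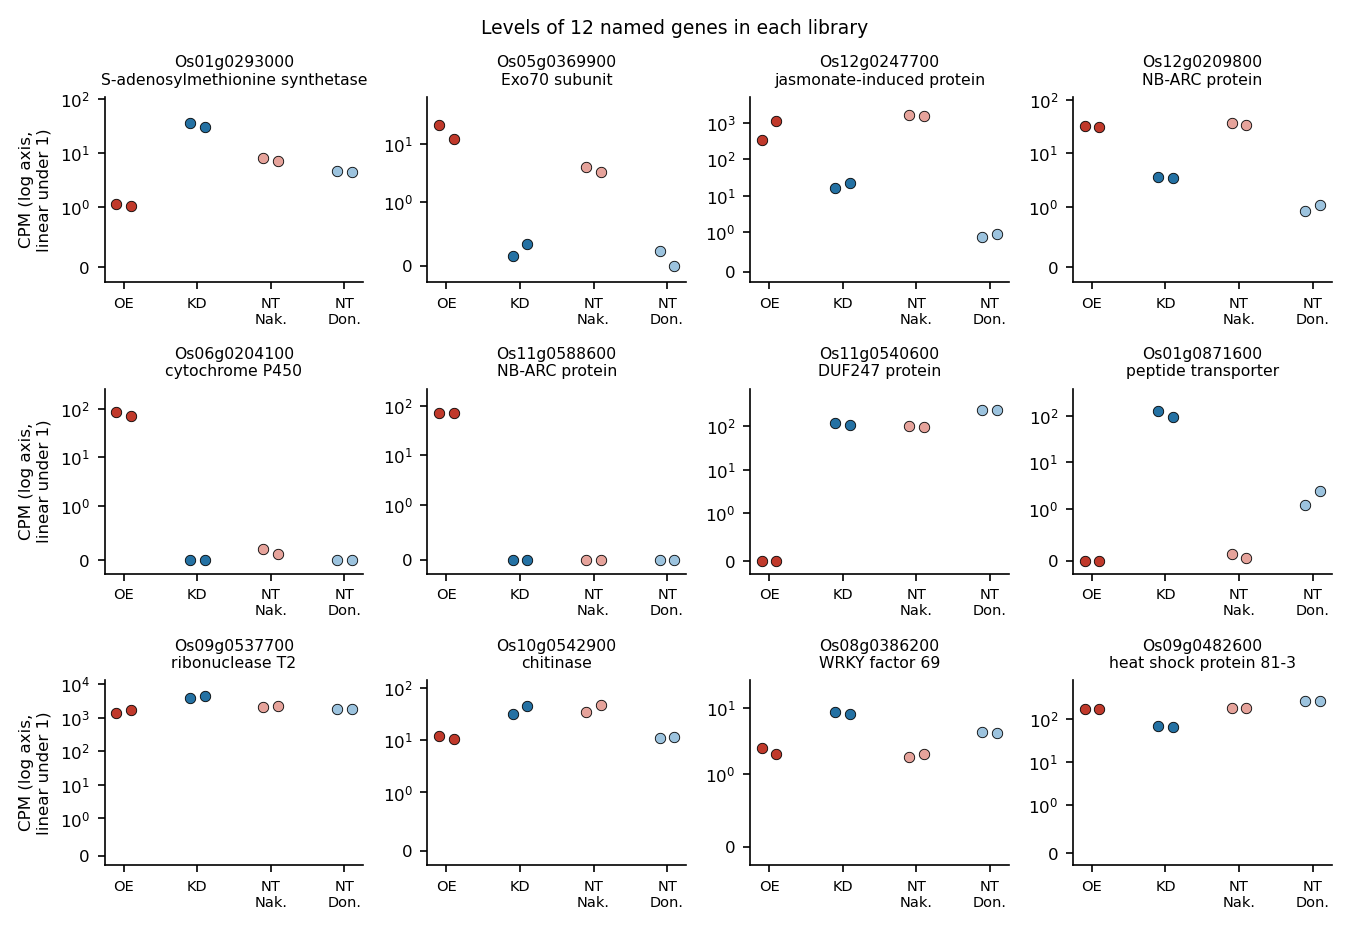
Level (CPM, TMM-scaled) of 12 named genes in each of the 8 libraries, 1 point a library, on a log axis that is linear under 1 CPM. In the middle row, 2 genes were read only in OsGRP3 OE or nearly so and 2 were at 0 in both OsGRP3 OE libraries, and in every panel the OsGRP3 OE points do not overlap the OsGRP3 KD points.

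The study named 16 candidate genes of OsGRP3, of which 15 were tested here, and since it chose them on these libraries their calls are no independent evidence. Besides OsGRP3, 3 were higher and 2 lower in OsGRP3 OE. The study listed Os01g0263300 and Os10g0361000, both higher here, as negatively regulated by OsGRP3. The other called candidates, Os05g0369900, Os01g0293000 and Os01g0162300, went the way the study gives. Its directions came from OsGRP3 OE and OsGRP3 KD each against NT plants, which is another comparison. The study also measured selected candidates by quantitative PCR in OsGRP3 KD plants and in plants overexpressing MYC-tagged OsGRP3. It further measured binding to OsGRP3 and the half-life of some transcripts, the lipoxygenase among them. Those experiments lie outside these libraries. Os05g0369900, an Exo70 subunit of the exocyst, which tethers secretory vesicles to the plasma membrane, had 21.2 and 11.9 CPM in OsGRP3 OE leaves, against 0.160 and 0.334 CPM in OsGRP3 KD leaves (log2 fold change 6.07, SE 0.60, adjusted p = 0.000779). NT Nakdong had 4.04 and 3.23 CPM of it and NT Dongjin 0.226 and 0 CPM. Os01g0293000, an S-adenosylmethionine synthetase, which makes the methyl donor and the precursor of ethylene, had 1.14 and 1.05 CPM in OsGRP3 OE, against 35.6 and 29.7 CPM in OsGRP3 KD (log2 fold change -4.89, SE 0.18, adjusted p = 2.18e-06). Its NT levels, 8.02 and 6.97 CPM in Nakdong and 4.67 and 4.48 CPM in Dongjin, lay between the transgenic groups, and the difference between OsGRP3 OE and OsGRP3 KD was called as different from that between the NT cultivars (adjusted p = 9.37e-07).

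The remaining candidate calls did not hold with each library left out. Peroxidase 72 (Os01g0263300), of the wall-bound peroxidases that use hydrogen peroxide, had 46.6 and 45.1 CPM in OsGRP3 OE, against 27.3 and 17.4 CPM in OsGRP3 KD (log2 fold change 1.03, adjusted p = 0.0144), and without OsGRP3 KD replicate 2 it was at 0.74, under 2-fold. The lipoxygenase Os10g0361000, of the enzymes that oxidise fatty acids at the start of jasmonate synthesis, had 20.5 and 15.3 CPM in OsGRP3 OE, against 8.39 and 8.35 CPM in OsGRP3 KD (log2 fold change 1.10, adjusted p = 0.0122), and without OsGRP3 OE replicate 1 it was at 0.87. The leucine-rich repeat gene Os01g0162300 (log2 fold change -2.51, adjusted p = 0.0439) lost its call without OsGRP3 OE replicate 2 (adjusted p = 0.0889), without OsGRP3 KD replicate 1 (0.0625) and without OsGRP3 KD replicate 2 (0.107). Of the candidates that were not called, the DOPA dioxygenase-like gene Os01g0878900 had 308 and 190 CPM in OsGRP3 OE and 347 and 348 CPM in OsGRP3 KD, and the carotenoid oxygenase Os08g0371200 had 43.7 and 20.8 CPM and 16.3 and 30.9 CPM. The metallothionein-like gene Os12g0571100, of the small proteins that bind metals, was at a log2 fold change of 0.95 (adjusted p = 0.141) and the thaumatin-like gene Os12g0629700 at 0.24 (adjusted p = 0.91). Os10g0580900, of no annotated function, was at -0.17 (adjusted p = 0.57). The late embryogenesis abundant gene Os03g0322900 had 10 and 0 counts in OsGRP3 OE and 20 and 9 in OsGRP3 KD (adjusted p = 0.557). Its groups overlapped, at 0.345 and 0 CPM in OsGRP3 OE and 0.641 and 0.334 CPM in OsGRP3 KD. The pooled counts, 10 and 29, gave a ratio of 2.82 in favour of OsGRP3 KD (95% counting interval 1.34 to 6.49). That interval covers counting error alone and not the spread between libraries. The PR1-like genes Os07g0124900, Os07g0125500 and Os07g0126301 carry almost the same values and may share reads. Os07g0124900 had 0.553 and 5.84 CPM in OsGRP3 OE and 0.833 and 0 CPM in OsGRP3 KD (adjusted p = 0.238), so its groups overlapped. The non-coding Os07g0559000 was too low to be tested, at 0.0691 and 0.399 CPM in OsGRP3 OE and 0.256 and 0.149 CPM in OsGRP3 KD.

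Genes that were present on one side and not read at all on the other form a group of their own. With presence set at 5 CPM or more in both libraries, 34 genes were present in OsGRP3 OE with 0 counts in both OsGRP3 KD libraries. Another 26 were present in OsGRP3 KD with 0 counts in both OsGRP3 OE libraries. Folds of such genes are lower bounds against 3 counts a library. The 3 most abundant in OsGRP3 OE were the cytochrome P450 gene Os06g0204100 at 85.7 and 72.6 CPM (at least 763-fold higher), the NB-ARC gene Os11g0588600 at 72.1 and 70.5 CPM (at least 687-fold higher) and Os09g0358000, annotated as similar to OsD305, at 58.5 and 60.4 CPM (at least 573-fold higher). None of the 3 was above 0.199 CPM in an NT library. Cytochrome P450 enzymes oxidise small molecules, and NB-ARC proteins are the intracellular receptors that recognise pathogens.

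The 3 most abundant genes of OsGRP3 KD that were at 0 in OsGRP3 OE behaved differently in NT leaves. Os01g0871600, a peptide transporter of the PTR2 type, had 126 and 94.1 CPM in OsGRP3 KD (at least 1035-fold lower in OsGRP3 OE), with 0.133 and 0.0516 CPM in NT Nakdong and 1.24 and 2.37 CPM in NT Dongjin. Os11g0540600, a protein of unknown function with a DUF247 domain, had 115 and 103 CPM in OsGRP3 KD (at least 1029-fold lower in OsGRP3 OE). It was present in every NT library, at 97.9 and 95 CPM in NT Nakdong and 233 and 237 CPM in NT Dongjin, so the OsGRP3 OE libraries were the only ones at 0. Os07g0597400, of no annotated function, had 65.6 and 75.1 CPM in OsGRP3 KD (at least 662-fold lower in OsGRP3 OE) and was likewise present at 67.5 and 69.4 CPM in NT Nakdong, the cultivar of the OsGRP3 OE plants. Of the 34 genes at 0 in OsGRP3 KD, 30 were also at 0 in NT Dongjin, and 17 of these were present in NT Nakdong. Of the 26 genes at 0 in OsGRP3 OE, 8 were also at 0 in NT Nakdong, and 4 of these were present in NT Dongjin. Of all 26, 17 were present in NT Dongjin and 15 in NT Nakdong, the cultivar of the OsGRP3 OE plants. Chromosome 12 held 14 and chromosome 11 held 8 of the 34 genes, and 4 and 6 of the 26.

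Several further genes of little or no annotated function came close to this pattern. Os12g0239300 had 132 and 122 CPM in OsGRP3 OE, against 3 counts in all in OsGRP3 KD, a ratio of 2470 (95% counting interval 843 to 12000). NT Nakdong had 137 and 150 CPM of it and NT Dongjin 0. Os01g0780900 had 48.2 and 52.4 CPM in OsGRP3 OE, against 1 count in OsGRP3 KD, a ratio of 2920 (524 to 115000), and was at 0 in all 4 NT libraries. Os08g0410900, at 29.4 and 34.8 CPM against 7 counts, a ratio of 266 (129 to 663), was also at 0 in all NT libraries. The non-coding Os04g0399200 had 4 counts in OsGRP3 OE, against 38.6 and 49.2 CPM in OsGRP3 KD, a ratio of 615 in favour of OsGRP3 KD (240 to 2260), and no NT library was above 0.0753 CPM. The counts of 1 gene may rest on few fragments and these intervals cover counting error alone.

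Other large differences left both groups with reads. Os12g0425800, a hypothetical protein gene, had 43.0 and 57.1 CPM in OsGRP3 OE, against 0.288 and 0.520 CPM in OsGRP3 KD (log2 fold change 6.96, SE 0.25, adjusted p = 7.29e-06), with NT Nakdong at 45.4 and 44.4 CPM and NT Dongjin at 0. The non-coding transcript Os03g0405200 had 0.173 and 0.362 CPM in OsGRP3 OE, against 33.9 and 37.3 CPM in OsGRP3 KD (log2 fold change -7.05, SE 0.34, adjusted p = 1e-05). Its NT levels split by cultivar too, at 0.0331 and 0.206 CPM in Nakdong and 7.71 and 7.84 CPM in Dongjin. Os05g0380200, of no annotated function, had 11.8 and 14.6 CPM in OsGRP3 OE, against 202 and 169 CPM in OsGRP3 KD (log2 fold change -3.82, SE 0.14, adjusted p = 2.28e-06), with 10.9 and 12.6 CPM in NT Nakdong and 119 and 116 CPM in NT Dongjin. Os03g0299700 had 0.449 and 0 CPM in OsGRP3 OE, against 39.5 and 36.6 CPM in OsGRP3 KD, and was at 0 in all NT libraries (log2 fold change -7.35, adjusted p = 0.00123 in edgeR and 0.456 in DESeq2). Os11g0471200 (log2 fold change -5.66, adjusted p = 0.00159) and Os06g0591400 (-5.40, adjusted p = 0.00371) had 2.28 and 0.580 CPM and 0 and 1.3 CPM in OsGRP3 OE, against 109 and 37.5 CPM and 34.0 and 20.5 CPM in OsGRP3 KD.

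The called genes were not spread evenly over the genome. On chromosome 11, 98 of 1411 tested genes (6.95%) were called, 49 in each direction, and on chromosome 12, 80 of 1377 (5.81%), with 58 higher and 22 lower in OsGRP3 OE. The other chromosomes lay between 1.26% on chromosome 10 and 3% on chromosome 1, where 35 genes were higher and 69 lower. Chromosomes 11 and 12 together held 30.9% of the called genes, against 11.4% of the genes tested. The same 2-fold calls between NT Nakdong and NT Dongjin covered 35.9% to 42.3% of the tested genes on every chromosome. OsGRP3 itself lies on chromosome 3, where 1.3% were called.

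For each called gene it was asked whether each NT level lay on the OsGRP3 OE or the OsGRP3 KD side of the midpoint between the 2 means of log2 CPM. Chromosome 12 had NT Nakdong near OsGRP3 OE and NT Dongjin near OsGRP3 KD for 61 of its 80 called genes, the split that follows the cultivar. Chromosome 11 had this split for only 10 of 98, and both NT cultivars were near OsGRP3 KD for 70. On chromosome 1, 32 of 104 followed the cultivar and 52 had both NT cultivars near OsGRP3 KD. For many of the called genes on chromosomes 11 and 1, the OsGRP3 OE libraries thus stood apart from the other 3 groups. Which line was sequenced is not known, and what this pattern comes from was not tested.

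**Figure D3:**
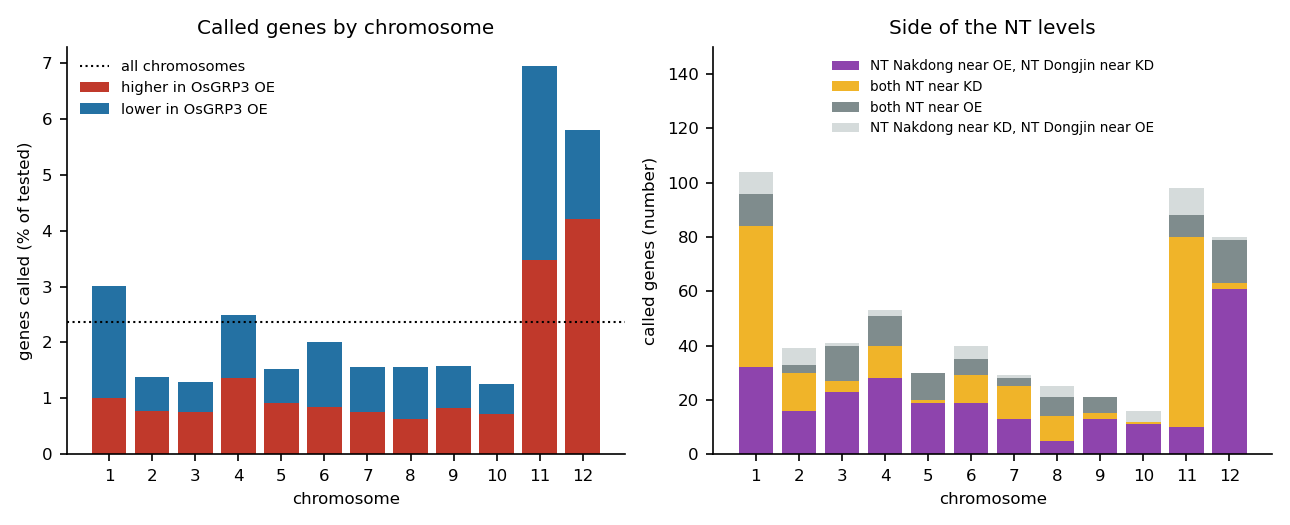
Left, the percent of tested genes called on each of the 12 chromosomes, split into genes higher and lower in OsGRP3 OE, with the value over all chromosomes, 2.36%, as a dotted line. Right, the number of called genes by which transgenic group the level of NT Nakdong and of NT Dongjin is nearer to. Chromosomes 11 and 12 stand out on the left, and on the right both NT cultivars are near OsGRP3 KD for 70 of the 98 genes on chromosome 11, while on chromosome 12 the levels follow the cultivar for 61 of 80.

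Within these chromosomes the called genes lay close together. Of 362 windows of 1 Mb with at least 20 tested genes, 143 held no called gene, while 24 windows had over 10% called and held 205 of the 576 called genes. Of these 24 windows, 17 were on chromosomes 11 and 12. The densest was chromosome 12, 6000001 to 7000000, with 13 of 22 tested genes called (59.1%), where NT Nakdong was near OsGRP3 OE for all 13 and NT Dongjin near OsGRP3 KD for 10. The next window of this kind, chromosome 12, 8000001 to 9000000, had 9 of 26 called (34.6%). On chromosome 11, the windows 22000001 to 23000000 and 23000001 to 24000000 had 13 of 51 (25.5%) and 13 of 47 (27.7%) called, with both NT cultivars near OsGRP3 KD for 10 in each. The first Mb of chromosome 1 had 17 of 127 called (13.4%), 13 of them lower in OsGRP3 OE, and both NT cultivars were near OsGRP3 KD for all 17. Genes in one window are neighbours and are not independent.

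How far the difference went with the cultivar was read from the NT libraries, which share none with the comparison. Of the 296 genes higher in OsGRP3 OE, 197 (66.6%) were also called higher in NT Nakdong than in NT Dongjin and 17 (5.74%) were called the other way, while over all tested genes 24.7% and 14.3% had these NT calls, together 38.9%. Of the 280 genes lower in OsGRP3 OE, 92 (32.9%) had the same NT call and 49 (17.5%) the opposite one, against 14.3% and 24.7% of all tested genes. The median NT log2 fold change was 3.59 over the higher genes and -0.38 over the lower genes. The genes called alike in both comparisons, 289, were 50.2% of the calls between OsGRP3 OE and OsGRP3 KD and 3.05% of the 9490 NT calls. Pearson's r of the fold changes across the 24383 genes was 0.279 and Spearman's rho 0.206, a description over genes, which are not independent replicates, with NT libraries of unlike coverage.

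The sides of the midpoint gave the same split by direction. Among genes higher in OsGRP3 OE, 186 (62.8%) followed the cultivar and 72 (24.3%) had both NT cultivars near OsGRP3 KD. Among genes lower in OsGRP3 OE, 64 (22.9%) followed the cultivar, 117 (41.8%) had both NT cultivars near OsGRP3 KD and 70 (25.0%) had both near OsGRP3 OE. Over all tested genes these shares were 29.0% following the cultivar, 24.3% with both near OsGRP3 KD and 30.3% with both near OsGRP3 OE. The test of the difference between both differences, (OsGRP3 OE over OsGRP3 KD) minus (NT Nakdong over NT Dongjin), called 2928 genes with a higher and 5366 with a lower value, 34.0% of all genes. Of the 576 genes called between OsGRP3 OE and OsGRP3 KD, 242 had no call in this test, among them Os06g0254300, Os05g0369900 and Os05g0380200.

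**Figure D4:**
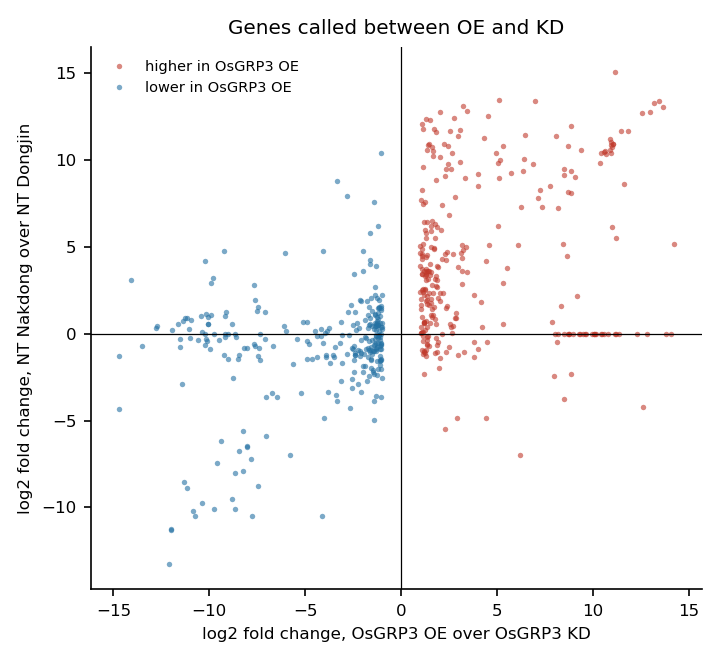
Log2 fold change of OsGRP3 OE over OsGRP3 KD (horizontal axis) and of NT Nakdong over NT Dongjin (vertical axis) for the 576 called genes, 1 point a gene. Most genes higher in OsGRP3 OE lie above 0 on the vertical axis, with a median of 3.59, and genes lower in OsGRP3 OE scatter around -0.38. Points at 0 on the vertical axis include genes with no reads in the NT libraries, and the most extreme values come from groups with few or no counts and are not sizes of change.

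Defense genes were read by their protein classes, from descriptions in the deposited tables. PR proteins, here chitinases, glucanases, thaumatins and PR1-like and related proteins that accumulate on infection, had 1 higher and 8 lower of 95 tested members (9.47%, against 2.36% of all genes), with a median log2 fold change of -0.06 against 0.005 over all genes. The chitinase Os10g0542900, which breaks down the chitin of fungal walls, had 12 and 10.4 CPM in OsGRP3 OE leaves, against 31.7 and 46.2 CPM in OsGRP3 KD leaves (log2 fold change -1.80, SE 0.20, adjusted p = 0.00148). The glucanase Os01g0940700, which cuts fungal and plant glucans, had 7.49 and 3.19 CPM in OsGRP3 OE, against 21.9 and 23.1 CPM in OsGRP3 KD (log2 fold change -2.07, SE 0.32, adjusted p = 0.00906). For both genes NT Nakdong was above NT Dongjin, at 35.5 and 46.7 CPM against 11.2 and 11.3 CPM for the chitinase and at 7.78 and 7.17 CPM against 1.81 and 2.23 CPM for the glucanase, the opposite of the order OsGRP3 OE and OsGRP3 KD. The thaumatin Os12g0630200 (4.45 and 10.1 CPM in OsGRP3 OE, 37.8 and 18.9 CPM in OsGRP3 KD, log2 fold change -1.96, adjusted p = 0.0462) lost its call without OsGRP3 OE replicate 1 (adjusted p = 0.117) and without OsGRP3 KD replicate 1 (adjusted p = 0.148). With each library left out in turn, 6 to 13 members were called lower, 13 of them without OsGRP3 KD replicate 2, and the summed level of the list overlapped between the groups, at 2035 and 2881 TPM in OsGRP3 OE and 3986 and 2430 TPM in OsGRP3 KD. Of the 23 tested genes that the study had listed as defense and stress genes, only the chitinase Os10g0542900 was called (4.35%, against 2.36% of all genes). WRKY45 (Os05g0322900, log2 fold change -0.98, adjusted p = 0.0462) and the PR10 gene Os03g0300400 (0.71, adjusted p = 0.0305) passed the test but not the 2-fold limit.

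Thionins, small antimicrobial peptides of the cereal leaf, had 3 higher members of 5 tested, and these calls did not hold with each library left out. Os07g0432201 had 30.1 and 102 CPM in OsGRP3 OE, against 13.2 and 17.2 CPM in OsGRP3 KD (log2 fold change 2.12, adjusted p = 0.0384). Os07g0430501 had 10 and 28.8 CPM in OsGRP3 OE, against 3.30 and 4.20 CPM in OsGRP3 KD (log2 fold change 2.37, adjusted p = 0.023). In both, OsGRP3 OE replicate 2 was far above replicate 1, and without it none of the 3 thionins was called, with log2 fold changes of 0.99 (adjusted p = 0.0245) and 1.42 (adjusted p = 0.0536). The 3 calls were also lost without OsGRP3 KD replicate 1 (adjusted p = 0.126 for Os07g0432201 and 0.081 for Os07g0430501) and without OsGRP3 KD replicate 2 (0.101 and 0.0719). The third called member, Os07g0432333, had 46 and 116 counts in OsGRP3 OE and 0 and 0 in OsGRP3 KD (adjusted p = 0.0263). Thionins have close copies that may share reads.

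NB-ARC receptors were called in both directions, 12 higher and 10 lower of 197 tested (11.2%, against 2.36% of all genes), with a median log2 fold change of 0.01. The higher members numbered 7 without OsGRP3 KD replicate 2, 8 without OsGRP3 OE replicate 1 and 7 with a replicate block, and 5 in limma on log2(FPKM + 1). Of the 22 called members, 19 were among the 95 members on chromosomes 11 and 12 (20%) and 3 among the 102 elsewhere (2.94%), while over all tested genes 6.38% were called on chromosomes 11 and 12 and 1.84% elsewhere. Os12g0209800 had 32.1 and 30.4 CPM in OsGRP3 OE, against 3.59 and 3.42 CPM in OsGRP3 KD (log2 fold change 3.16, SE 0.12, adjusted p = 2.28e-06), with NT Nakdong at 36.5 and 33.7 CPM and NT Dongjin at 0.941 and 1.10 CPM. Os12g0281300 had 5.25 and 7 CPM in OsGRP3 OE, against 0.609 and 0.668 CPM in OsGRP3 KD (log2 fold change 3.26, SE 0.25, adjusted p = 0.000175), and here OsGRP3 KD alone was low, since NT Dongjin had 13.1 and 16.8 CPM. Os11g0588600, above, was read in OsGRP3 OE alone. NB-ARC genes lie in clusters of close relatives, and reads may be split between copies.

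WRKY factors, which switch on defense and stress genes, leaned to lower values in OsGRP3 OE without many calls. Of 73 tested members, 58 had a negative log2 fold change, against 49.0% of all genes, and the median was -0.52. Only 3 were called, all lower (4.11%, against 2.36% of all genes). WRKY69 (Os08g0386200) had 2.49 and 1.99 CPM in OsGRP3 OE, against 8.84 and 8.09 CPM in OsGRP3 KD (log2 fold change -1.92, SE 0.21, adjusted p = 0.00126). WRKY1 (Os01g0246700) at -1.08 (adjusted p = 0.0246) lost its call with any 1 of the 4 libraries left out, at adjusted p-values of 0.0583 and 0.0809 without OsGRP3 OE replicates 1 and 2 and 0.0662 and 0.0528 without OsGRP3 KD replicates 1 and 2. The members summed to 420 and 446 TPM in OsGRP3 OE, against 649 and 583 TPM in OsGRP3 KD, with 504 and 572 TPM in NT Nakdong and 694 and 677 TPM in NT Dongjin.

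Of 40 tested lipoxygenase and other jasmonate genes, 2 were higher and 2 lower, a larger share than the 2.36% called among all genes. Of 44 phenylpropanoid enzymes 1 was lower (2.27%), near the 2.36% of all genes. The Tify gene Os03g0181100, of the family of jasmonate repressors, was at the 2-fold limit (7.32 and 6.05 CPM in OsGRP3 OE, 11.7 and 15.3 CPM in OsGRP3 KD, log2 fold change -1.01, adjusted p = 0.0292). Its call was lost without OsGRP3 OE replicate 1 (adjusted p = 0.0509), OsGRP3 OE replicate 2 (0.0922) or OsGRP3 KD replicate 2 (0.109). Phenylalanine ammonia-lyase Os04g0518400, the entry to lignin and phenolic synthesis, had 7.29 and 5.29 CPM in OsGRP3 OE, against 12.3 and 13.6 CPM in OsGRP3 KD (log2 fold change -1.04, adjusted p = 0.0223), and lost its call without OsGRP3 OE replicate 2 (adjusted p = 0.0638) or OsGRP3 KD replicate 2 (0.0752).

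**Figure D5:**
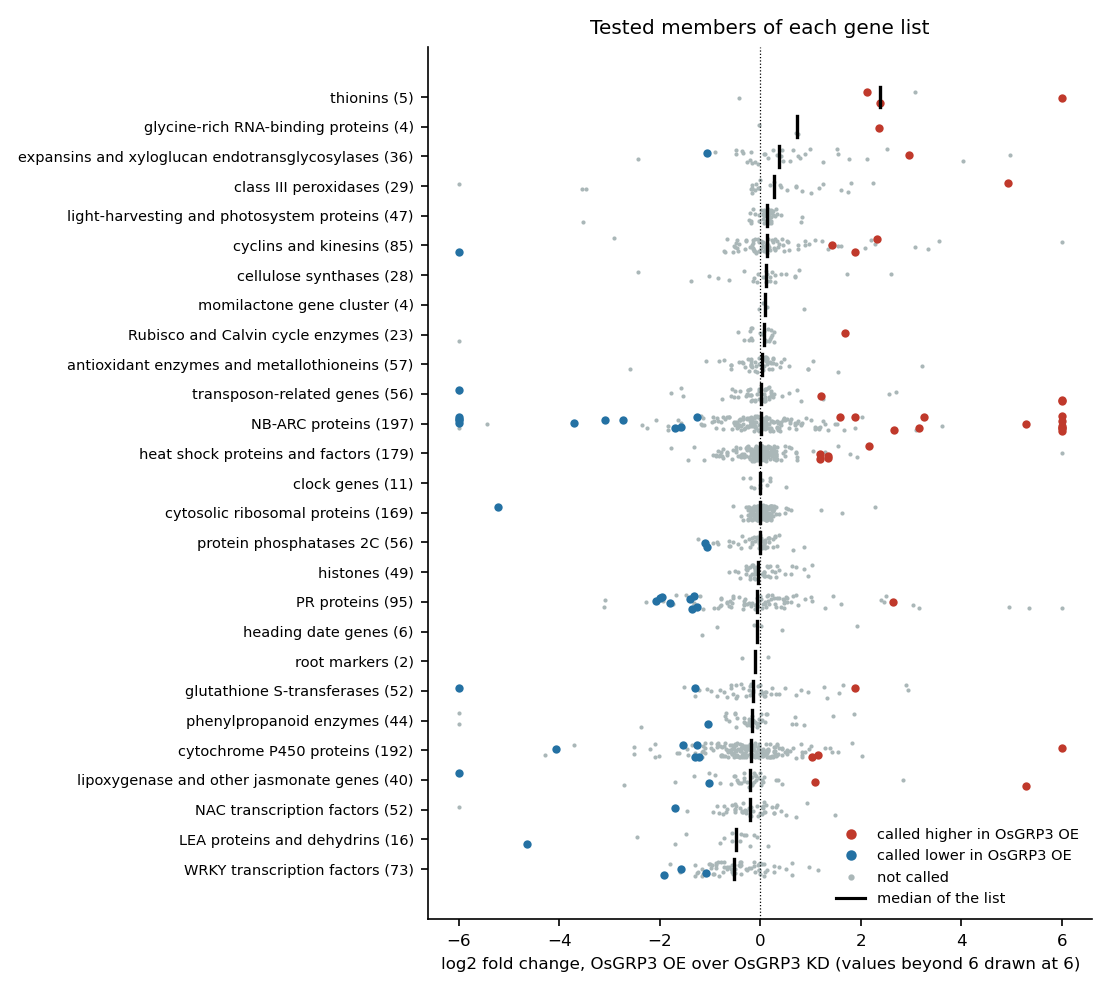
Log2 fold change of OsGRP3 OE over OsGRP3 KD for every tested member of the gene lists, with the number tested in brackets, called members in colour and the median of each list as a bar. Values beyond 6 are drawn at 6. WRKY factors have the lowest median, -0.52, with 3 called members, while the medians of ribosomal proteins, heat shock proteins and clock genes are within 0.01 of 0.

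Genes that remove or use reactive oxygen species were counted in 3 lists. None of 57 tested antioxidant enzymes and metallothioneins was called by edgeR, with 1 higher and 1 lower at an unadjusted p under 0.05 and 2-fold and, in DESeq2, 1 called in each direction, and their median log2 fold change was 0.04. They summed to 64284 and 75384 TPM in OsGRP3 OE and 61345 and 73231 TPM in OsGRP3 KD. Of 29 peroxidases in the list of class III peroxidases, drawn from the descriptions, 1 was higher (3.45%, against 2.36% of all genes), with 5 higher and 3 lower at an unadjusted p under 0.05. That list does not hold peroxidase 72 (Os01g0263300), given above with the candidates of the study. Of 52 glutathione S-transferases, 1 was higher and 2 lower (5.77%), or 5 and 3 at an unadjusted p under 0.05. The transferase gene Os01g0692100, of the enzymes that join glutathione to toxic compounds, had 1.24 and 1.34 CPM in OsGRP3 OE, against 3.08 and 3.27 CPM in OsGRP3 KD (log2 fold change -1.29, adjusted p = 0.0347), and lost its call with any 1 library left out (adjusted p = 0.0971 and 0.0706 without OsGRP3 OE replicates 1 and 2, 0.0619 and 0.0917 without OsGRP3 KD replicates 1 and 2).

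Lists with members that act in the abscisic acid response had 3 calls, all lower in OsGRP3 OE. Protein phosphatases 2C, a family of which only some members hold back abscisic acid signalling, had 2 lower of 56 (3.57%, against 2.36% of all genes). These were Os05g0457200, at 8.12 and 9.68 CPM in OsGRP3 OE against 20.6 and 17.5 CPM in OsGRP3 KD (log2 fold change -1.10, adjusted p = 0.0468), and Os09g0325700, at 3.25 and 4.31 CPM against 7.5 and 8.35 CPM (-1.07, adjusted p = 0.0177). Os05g0457200 lost its call without any 1 of the 4 libraries (adjusted p = 0.147 and 0.0746 without OsGRP3 OE replicates 1 and 2, 0.127 and 0.0783 without OsGRP3 KD replicates 1 and 2) and Os09g0325700 without OsGRP3 OE replicate 1 (0.0701) or OsGRP3 KD replicate 2 (0.0646). Late embryogenesis abundant proteins and dehydrins, which protect cells from water loss, had 1 lower of 16 (6.25%), and 15 of the 16 had a negative log2 fold change (median -0.48), against 49.0% of all genes. The called member lost its call without OsGRP3 KD replicate 2.

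Growth genes had 4 calls higher and 2 lower in OsGRP3 OE. A kinesin, Os03g0301800, one of the motors on microtubules, had 9.46 and 10 CPM in OsGRP3 OE, against 4.33 and 2.93 CPM in OsGRP3 KD (log2 fold change 1.42, adjusted p = 0.0143), and lost its call without OsGRP3 KD replicate 2 (adjusted p = 0.0511). The expansin OsEXPA7 (Os03g0822000), which loosens cell walls, had 12.9 and 8.01 CPM in OsGRP3 OE, against 2.08 and 0.557 CPM in OsGRP3 KD (log2 fold change 2.96, adjusted p = 0.0179), and was not called with only the 4 libraries in the fit (adjusted p = 0.0675). The xyloglucan endotransglycosylase Os11g0539200 was lower, at 7.08 and 5.84 CPM in OsGRP3 OE against 11.6 and 15.4 CPM in OsGRP3 KD (log2 fold change -1.06, adjusted p = 0.0406), and was not called without OsGRP3 OE replicate 1 (adjusted p = 0.0703), OsGRP3 OE replicate 2 (0.118) or OsGRP3 KD replicate 2 (0.14). Over the lists, 3 of 85 cyclins and kinesins were higher and 1 lower (4.71%), and 1 of 36 expansins and xyloglucan endotransglycosylases was called in each direction (5.56%), against 2.36% of all genes. At an unadjusted p under 0.05 and 2-fold, 15 cyclins and kinesins were higher and 2 lower, and 8 expansins and xyloglucan endotransglycosylases higher and 1 lower, against 3.83% and 2.88% of all genes. Without OsGRP3 KD replicate 1 the calls higher in OsGRP3 OE numbered 6 in each list, without OsGRP3 KD replicate 2 they numbered 1 in each, and with only the 4 libraries in the fit 0 in each. Without OsGRP3 OE replicate 1 or 2 they numbered 1 and 2 for cyclins and kinesins and 2 in either case for expansins and xyloglucan endotransglycosylases.

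Heat shock proteins had 5 higher members and none lower by edgeR of 179 tested. This was 2.79%, near the 2.36% of all genes, with a median log2 fold change of 0.005. At 2-fold and an unadjusted p under 0.05, 9 were higher and 3 lower, while 3.83% and 2.88% of all genes were. DESeq2 called 8 higher and 0 lower. The chaperone gene Os09g0482600, annotated as heat shock protein 81-3, had 173 and 174 CPM in OsGRP3 OE, against 70.8 and 65.2 CPM in OsGRP3 KD (log2 fold change 1.35, SE 0.07, adjusted p = 2.06e-05). The nearby Os09g0482400, under the same annotation, had nearly equal values (177 and 178 CPM, against 71.9 and 67.1 CPM), so the pair may share reads. OsGRP3 KD was the low group for the pair, with NT Nakdong at 180 and 180 CPM and NT Dongjin at 270 and 268 CPM of Os09g0482600. The small heat shock protein Os06g0253100 had 5.46 and 6.81 CPM in OsGRP3 OE, against 1.35 and 1.37 CPM in OsGRP3 KD (log2 fold change 2.17, SE 0.25, adjusted p = 0.00174).

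Photosynthesis, translation and chromatin genes had few calls. None of 47 light-harvesting and photosystem genes was called by edgeR or DESeq2, with 0 higher and 1 lower in edgeR at an unadjusted p under 0.05 and 2-fold. Of 169 cytosolic ribosomal protein genes, 1 was lower (0.592%, against 2.36% of all genes, median log2 fold change 0.002). Of 23 Rubisco and Calvin cycle genes, 1 was higher (4.35%). That gene was Os02g0152400, annotated as similar to ribulose bisphosphate carboxylase, at 10.6 and 14.2 CPM in OsGRP3 OE against 4.13 and 3.53 CPM in OsGRP3 KD (log2 fold change 1.70, SE 0.21, adjusted p = 0.00472). None of 49 histones, 28 cellulose synthases or 11 clock genes was called by edgeR or DESeq2, nor at an unadjusted p under 0.05 and 2-fold in edgeR, where each list again had 0.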

How the data were processed

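Messenger RNA of leaves was sequenced in 8 libraries, 2 in each of OsGRP3 OE, OsGRP3 KD, NT Nakdong and NT Dongjin. The authors deposited a table of 37869 genes (35679 protein-coding, 2190 non-coding) with estimated counts, FPKM and TPM per library, and StringTie transcript files with coverage. Per the file headers and processing notes, reads were aligned to IRGSP 1.0 with HISAT2 and quantified with StringTie 1.3.4d under a stranded setting. The study's methods name TopHat, a kit and single-end reads that differ from the labels, and which applies could not be settled. The deposited estimated counts were whole numbers equal to coverage times length over a read length of 101 bases, rounded up and summed over transcripts, so they are expected counts and were used as deposited. The FPKM values that the authors deposited served the alternatives, and the deposited TPM values the levels between genes and summed lists. The deposited coverage served the exon values.

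Members and gene lists were chosen with earlier results of these data known. Genes were filtered with filterByExpr, scaled by TMM, and fitted with edgeR 4.0.16 (glmQLFit and glmQLFTest, R 4.3.3) to 1 mean a group on the 8 libraries, so that the groups share the estimate of spread. Adjusted p-values are Benjamini-Hochberg over the 24383 genes tested. Called means 2-fold and adjusted p under 0.05. Genes named are the glycine-rich RNA-binding genes, the candidates of the study, the 8 largest changes a direction and the 5 most abundant called genes a direction, up to 3 called members a list, and the 3 most abundant genes a direction that were at 0 in the other group. Largest changes and list members needed a mean log2 CPM of at least 1. Lists came from the descriptions in the table or, for clock, heading date, momilactone, marker and study lists, from identifiers. No set test was run. Genes with 0 counts in a group have bounds against 3 counts per library, and genes with few counts a ratio with an exact 95% counting interval, which covers counting error alone.

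Alternatives were DESeq2 1.42.0 and its size factors, other filters, 4 or 6 libraries in the fit, limma 3.58.1 on log2(FPKM + 1) and log2(FPKM + 0.1), a test of each gene alone after quantile normalization of log2(FPKM + 1), the replicate number as a block, and each library left out. Tables and figures were made with Python 3.11.15, pandas 2.3.3, numpy 2.4.6, scipy 1.17.1 and matplotlib 3.10.9. The fit was also run on simulated counts whose means and spread came from these libraries, with 200 changed genes. At an adjusted p under 0.05 it recovered 46% of 2-fold and 87% of 4-fold changes. It made 8 false calls at 2-fold and an adjusted p under 0.05. Totals of 25836946 to 38940899 estimated counts a library set the precision of low levels.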

Additional observations from a re-analysis of the deposited data

Results flagged for a closer look

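For 8294 genes the difference between OsGRP3 OE and OsGRP3 KD was called as different from the difference between NT Nakdong and NT Dongjin, by edgeR's quasi-likelihood test of both differences in 1 fit. NT Dongjin differed from the other groups in its coverage along transcripts and in clock and cell-wall genes, and the part of this was not tested. Below, values are the log2 fold change of OsGRP3 OE over OsGRP3 KD, then that of NT Nakdong over NT Dongjin, with the adjusted p of the difference between them.

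For one set of genes the order was turned round. These were the chitinase Os10g0542900 (-1.80 and 1.87, adjusted p = 1.57e-05), the glucanase Os01g0940700 (-2.07 and 1.88, 0.000167), the thaumatin Os12g0630200 (-1.96 and 4.76, 0.000128), the ribonuclease Os09g0538000 (-1.75 and 1.11, 1.59e-05), the Tify gene Os03g0181100 (-1.01 and 2.24, 4.39e-05), phenylalanine ammonia-lyase Os04g0518400 (-1.04 and 1.63, 8.64e-05) and the NB-ARC gene Os12g0281300 (3.26 and -1.07, 1.34e-05). Ribonuclease Os09g0537700 (-1.40 and 0.29, 5.47e-05), S-adenosylmethionine synthetase Os01g0293000 (-4.89 and 0.71, 9.37e-07), glutathione S-transferase Os01g0692100 (-1.29 and -0.04, 0.0219), cytochrome P450 Os01g0543600 (-1.31 and 0.46, 0.0064), Os11g0471200 (-5.66 and -1.74, 0.0146), Os06g0591400 (-5.40 and -0.28, 0.00134) and the heat shock genes Os09g0482600 (1.35 and -0.58, 2.76e-06) and Os09g0482400 (1.35 and -0.62, 2.32e-06) differed between the transgenic groups with no call between the NT groups.

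In another set the NT difference went the same way and was the larger. These were the glycine-rich RNA-binding genes Os12g0632000 (0.71 and 3.18, adjusted p = 2.01e-06) and Os05g0223200 (0.76 and 2.45, 0.0474), peroxidase Os01g0263300 (1.03 and 7.70, 2.21e-06), the jasmonate-induced gene Os12g0247700 (5.29 and 10.82, 0.000409), sucrose synthase Os03g0401300 (1.10 and 4.87, 5.61e-05), the NB-ARC gene Os12g0209800 (3.16 and 5.09, 4.29e-05), the phosphatase Os09g0325700 (-1.07 and -3.61, 8.45e-05) and the kinesin Os03g0301800 (1.42 and 3.16, 0.00358). Os10g0580900 (-0.17 and 0.90, 0.00276) was called in neither comparison alone.

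A group with 0 to 4 counts gives no size of change, so for the following genes the adjusted p of the difference is given alone. NT Dongjin had 0 counts of the carotenoid oxygenase Os08g0371200 (0.000165), the DOPA dioxygenase-like Os01g0878900 (1.93e-06), the lipoxygenase Os10g0361000 (4.83e-06), Os12g0425800 (0.00183), Os02g0152400 (1.79e-05), OsEXPA7 (Os03g0822000, 0.00325) and the xyloglucan endotransglycosylase Os11g0539200 (9.08e-06), and few of the thaumatin-like Os12g0629700 (0.00763). OsGRP3 OE had 0 counts of Os01g0871600 (0.00264), Os11g0540600 (3.72e-07) and Os07g0597400 (2.31e-07), and 4 of Os04g0399200 (9.62e-05).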

How the results depend on the processing

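No called gene changed the direction of its fold under any alternative. Against 296 higher and 280 lower genes, higher genes numbered 465 in DESeq2 (541 of the 576 called again), 536 with no filter and 181 in limma without a filter. With at least 10 counts in each of the 4 libraries the counts were 195 higher and 184 lower, with only the 4 libraries in the fit 167 and 179, in the test of each gene alone 3 and 7 (176 and 181 unadjusted), and at an unadjusted p under 0.05 933 and 703. Leaving out each library gave 220 (without OsGRP3 KD replicate 2) to 560 higher (without OsGRP3 KD replicate 1) and 261 to 337 lower. The share of higher genes with the same NT call was 73.5% in DESeq2, 73.9% with no filter, 72.8% with at least 10 counts, 60.1% and 53.0% in limma with and without the filter, and 55.9% to 78.0% with a library left out, while that of lower genes was 21.5% and 21.4% in limma and 32.4% to 35.6% with a library left out. The cause of these shifts was not tested, except that the stricter filter tested fewer genes. Genes present on one side and at 0 on the other numbered 66 (OsGRP3 OE) and 62 (OsGRP3 KD) at 1 CPM and 9 and 6 at 20 CPM. OsGRP3 was at a log2 fold change of 2.395 in the test of each gene alone, where it was not called (adjusted p = 0.358), and at 2.19 to 2.526 with a library left out. Of the 54 named genes called, 33 were called under every alternative that gave them a value but the test of each gene alone, which called none of them. The ratio of the percent called on chromosomes 11 and 12 to that elsewhere, examined after the data were seen, was 2.24 without OsGRP3 KD replicate 1 to 4.94 with the 4 libraries alone. Size factors of DESeq2 put the median of all genes at 0.03 on the log2 scale.

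Gene levels of same-numbered OsGRP3 OE and OsGRP3 KD libraries did not deviate together (correlation of the deviations -0.051). Their coverage was matched, with median log2 ratios of first to last exon of -2.44 and -2.45 for replicate 1. For replicate 2 they were -2.69 and -2.72. Total counts were matched too, at 30446472 and 30254075 for replicate 1 and 27662050 and 27719989 for replicate 2. Whether the numbers mark a shared processing step was not tested. With the replicate number as a block, 228 genes were higher and 223 lower, 439 of the 576 among them. With 2 libraries a group, a gene without a call is not shown to be equal.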

Other observations

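Cytochrome P450 genes, whose enzymes oxidise hormones, defense compounds and pigments, had 3 higher and 5 lower of 192 tested members (4.17%, against 2.36% of all genes). Their median log2 fold change was -0.18, and 124 of the 192 had a negative value, against 49.0% of all genes. Os01g0543600 had 11.8 and 23.7 CPM in OsGRP3 OE leaves, against 52.2 and 35.5 CPM in OsGRP3 KD leaves (log2 fold change -1.31, adjusted p = 0.0439 in edgeR), and was not called without OsGRP3 OE replicate 1 (adjusted p = 0.0642) or OsGRP3 KD replicate 1 (0.133). Os01g0728300 had 1.76 and 1.27 CPM in OsGRP3 OE, against 4.00 and 4.86 CPM in OsGRP3 KD (log2 fold change -1.54, SE 0.26, adjusted p = 0.014). It kept its call with each library left out, was not called with only the 4 libraries in the fit (adjusted p = 0.0843) and was under 2-fold in limma on log2(FPKM + 1). Transposon-related genes had 3 higher and 1 lower of 56 tested (7.14%, against 2.36% of all genes). Of these, Os02g0566300 had 25.7 and 28.9 CPM in OsGRP3 OE, against 13.2 and 10.5 CPM in OsGRP3 KD (log2 fold change 1.20, adjusted p = 0.0203), with a call lost without OsGRP3 OE replicate 2 (adjusted p = 0.056) or OsGRP3 KD replicate 2 (0.0911).

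NAC transcription factors had 1 lower of 52 tested (1.92%, against 2.36% of all genes, median log2 fold change -0.21). No heading date gene of 6 tested, no momilactone gene of 4 and neither of 2 root markers was called by edgeR or DESeq2, with 1 heading date gene in each direction at an unadjusted p under 0.05 and 2-fold in edgeR, 0 momilactone genes and 0 root markers. Both shoot meristem markers were too low to be tested, with 0.0523 TPM summed in 1 OsGRP3 KD library and 0 in the other libraries. Genes described as hypothetical made up 29.3% of the called genes, against 24.1% of the genes tested, and 23 of 528 tested non-coding genes were called (4.36%, against 2.36% of all genes).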
